A study of Canis lupus familiaris with 77 samples.

Results

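The miR-34 and miR-449 family was followed through 16 tissues of the beagle dog. The family was taken as the 7 miRNAs named cfa-miR-34a, cfa-miR-34b, cfa-miR-34c, hsa-miR-34b-3p, hsa-miR-34c-3p, cfa-miR-449a and hsa-miR-449b-5p, chosen by name and not by level, of the 650 miRNAs with a read in the samples used. The prefix cfa marks a name from the dog annotation, and hsa marks a mature miRNA that the dog annotation lacked and that was placed on the dog genome through its human sequence. The samples came from untreated male Marshall Beagle dogs, with 5 animals aged 10 months according to the methods of the study, and every animal was perfused with phosphate buffered saline before the organs were taken. Small RNA libraries of total RNA were sequenced from liver, heart, testis, lung, skeletal muscle, kidney, thymus, brain, sciatic nerve, pancreas, duodenum, jejunum, ileum, colon, bone marrow and plasma. The 76 libraries comprised 2 from sciatic nerve, 4 from colon and 5 from each of the other 14 tissues. The study's accounts of how sciatic nerve RNA was pooled because of low yields differ between its sections, and the labels do not say whether the 2 samples used here were pools or individual samples. The labels give no dog number, so samples of different tissues could not be matched to an animal, and the sample numbers below are names only. Where nothing says that samples came from separate animals, p-values measure the spread between samples, which may be technical.

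The mature 5p strands of miR-34a, miR-34b, miR-34c, miR-449a and miR-449b carry near-identical seeds, the stretch near the 5′ end that pairs with target mRNAs, and so they can repress overlapping sets of mRNAs. miR-34a is a classical transcriptional target of p53 and acts on cell cycle and survival genes, whereas miR-34b/c and the miR-449 cluster are known for their part in the differentiation of multiciliated cells, as in airway and ependyma, and in spermatogenesis. In the RefSeq gene table of the dog assembly UU_Cfam_GSD_1.0, MIR34B and MIR34C were neighbours inside HOATZ, a gene of cilia and flagella, beside BTG4. MIR449A and MIR449B were neighbours inside CDC20B, a gene of multiciliated cells, and MIR34A stood apart from both pairs, with GPR157 before it. The 3p members come from the opposite arm of the miR-34b and miR-34c hairpins and have other seeds.

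Levels are given as RPM, the reads of a miRNA per 1000000 reads of the library that aligned to miRNAs. Library totals ran from 157871 to 7896424 reads with a median of 1364823, so that 3 reads, the level allowed by a count of 0, corresponded to 0.380 to 19.0 RPM. The testis totals ran from 219585 to 2027090 reads. A tissue was called tissue enriched (TE) for a miRNA when its mean was above 5 times the mean of all other samples, an exact two-sided Wilcoxon rank-sum test passed an adjusted p of 0.05, and the tissue median was above 100 RPM. It was called highly tissue enriched (HTE) when its median was above 5 times the highest sample of any other tissue and above 100 RPM. In whole tissue, fewer cells of a type and less RNA per cell cannot be told apart.

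Some libraries stood apart within their tissue label. Testis samples 2 and 3 held few reads of the testis miRNA miR-202, at 240.7 and 0.493 RPM against 3340 to 5345 RPM in testis 1, 4 and 5. miR-141, a miRNA of epithelia, was at 3895 and 6493 RPM in testis 2 and 3 and at 950.1, 31.9 and 45.3 RPM in testis 1, 4 and 5. In the thymus, miR-181a, which is abundant in thymocytes, was at 426312 and 500018 RPM in thymus 1 and 4 but at 41991 to 53348 RPM in the other 3 samples. Brain 3 had the brain marker miR-124 at 4442 RPM, within the 2067 to 4574 RPM of the other brain samples, and stood apart in other miRNAs that are given with its values. Skeletal muscle 4 had the muscle marker miR-1 at 9.07 RPM, against 1390 to 3055 RPM in the other skeletal muscle samples. Duodenum 3 and 4 had miR-192, high in intestine, at 22363 and 5188.5 RPM, against 77588 to 385247 RPM in the other duodenum samples. The main results that rest on the testis, thymus and brain libraries named here are given with and without them. The values of skeletal muscle and duodenum below include all their samples.

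miR-34c was by far the most abundant member and was concentrated in the testis. Its level was 49237, 4631, 582.1, 93353 and 80187 RPM in testis 1 to 5, and it ranked between place 2 and place 67 among the miRNAs of a testis library. Testis 1, 4 and 5 were high, and testis 2 and 3 were low. Testis 3, at 582.1 RPM (95% Wilson interval 549.8 to 616.3, counting error only), was below brain 3 at 1939 RPM, the one sample outside testis that overlapped with the testis range. The testis mean was 45598 ± 42411 RPM (SD, n = 5) against a mean of 58.3 RPM over the 71 other samples, a 782-fold difference (exact rank-sum test, adjusted p = 1.76e-05). In the testis, 6 of the 7 members were TE and the same 6 were HTE, where 3.08% and 2.31% of all 650 miRNAs were called.

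miR-34b, transcribed next to miR-34c, followed it at a lower level. It was at 2175, 164.1, 30.1, 4281 and 3232 RPM in testis 1 to 5. The mean of 1976 ± 1871 RPM (SD, n = 5) was 732-fold above the mean of 2.70 RPM elsewhere (exact rank-sum test, adjusted p = 1.76e-05). As for miR-34c, brain 3, at 97.7 RPM, was the one sample from another tissue that lay above testis 3.

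The opposite arms were concentrated in the same samples. miR-34b-3p was at 991.5, 145.9, 56.2, 1662 and 1720 RPM in testis 1 to 5, and all 5 values were above every other sample, of which brain 3 was highest at 26.5 RPM. Its fold in testis was 445 (exact rank-sum test, adjusted p = 1.41e-05). miR-34c-3p was at 354.4, 87.5, 4.44, 419.0 and 484.0 RPM, a fold of 211 (exact rank-sum test, adjusted p = 8.36e-05), and its testis 3 value lay within the range of the other tissues.

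The miR-449 cluster was also high in testis 1, 4 and 5. miR-449a was at 3159, 331.8, 26.6, 4868 and 3980 RPM in testis 1 to 5, with a mean of 2473 ± 2182 RPM (SD, n = 5) against 3.29 RPM elsewhere, a fold of 753 (exact rank-sum test, adjusted p = 2.17e-05). Its testis 3 value lay below lung 4 at 43.2 RPM and brain 3 at 34.4 RPM. miR-449b-5p was the least abundant of the enriched members, at 139.5, 7.29, 0.987, 141.2 and 243.8 RPM. Its fold was 248 (exact rank-sum test, adjusted p = 1.74e-04), and testis 2 and 3 rested on 2 reads each.

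miR-34a did not share this pattern. It was at 7.54, 14.6, 19.7, 27.3 and 38.3 RPM in testis 1 to 5, which rests on 2 to 40 reads per library. Testis 3, lowest for the other members, was in the middle for miR-34a. The testis mean was 21.5 ± 11.9 RPM (SD, n = 5) against 36.1 RPM elsewhere, 0.595-fold (exact rank-sum test, adjusted p = 0.857). A count model (edgeR quasi-likelihood test of testis against the mean of the other 15 tissues) called the same 6 members higher and none lower, where 34% of the 480 miRNAs fitted were higher and 16% lower. miR-34c differed by 10.38 on the log2 scale (edgeR adjusted p = 4.08e-29) and miR-34a by -0.56 (edgeR adjusted p = 0.134).

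**Figure D1:**
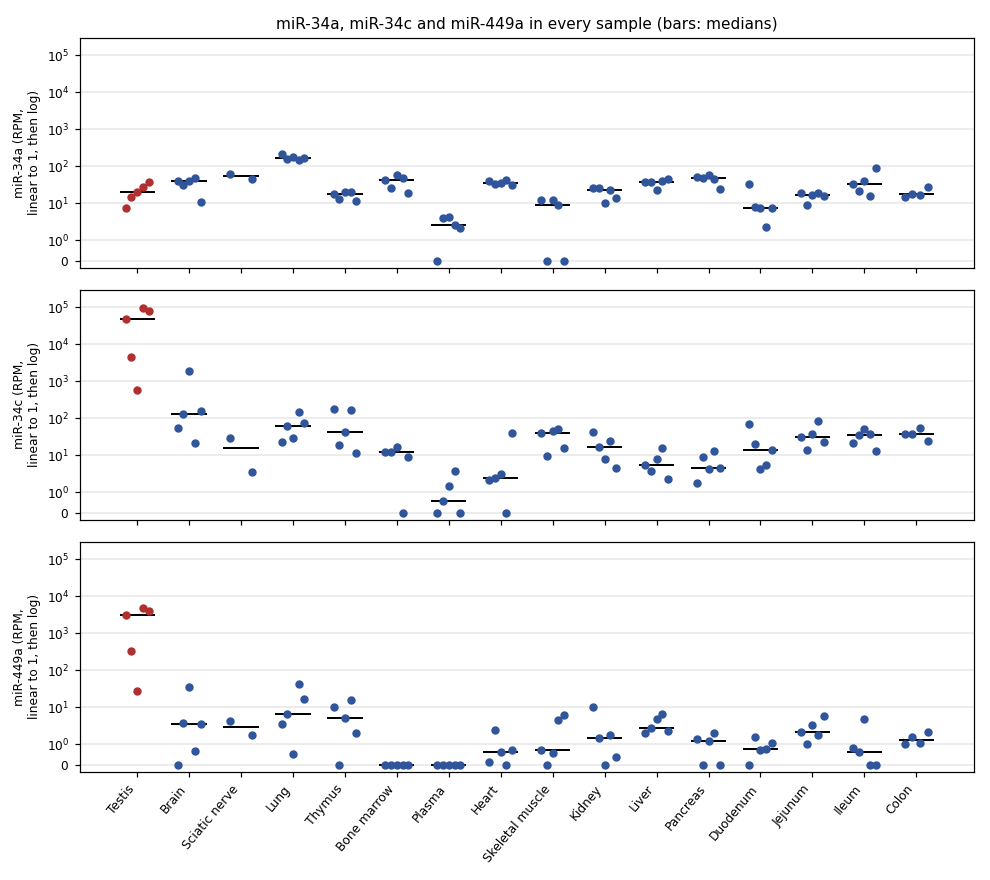
RPM of miR-34a, miR-34c and miR-449a in each of the 76 samples by tissue, on an axis that is linear up to 1 RPM and logarithmic above. Each point is a sample, bars are medians, and testis is in red. miR-34c and miR-449a had their highest medians in testis, at 49237 and 3159 RPM, whereas miR-34a had its highest median in lung, at 172.0 RPM.

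**Figure D2:**
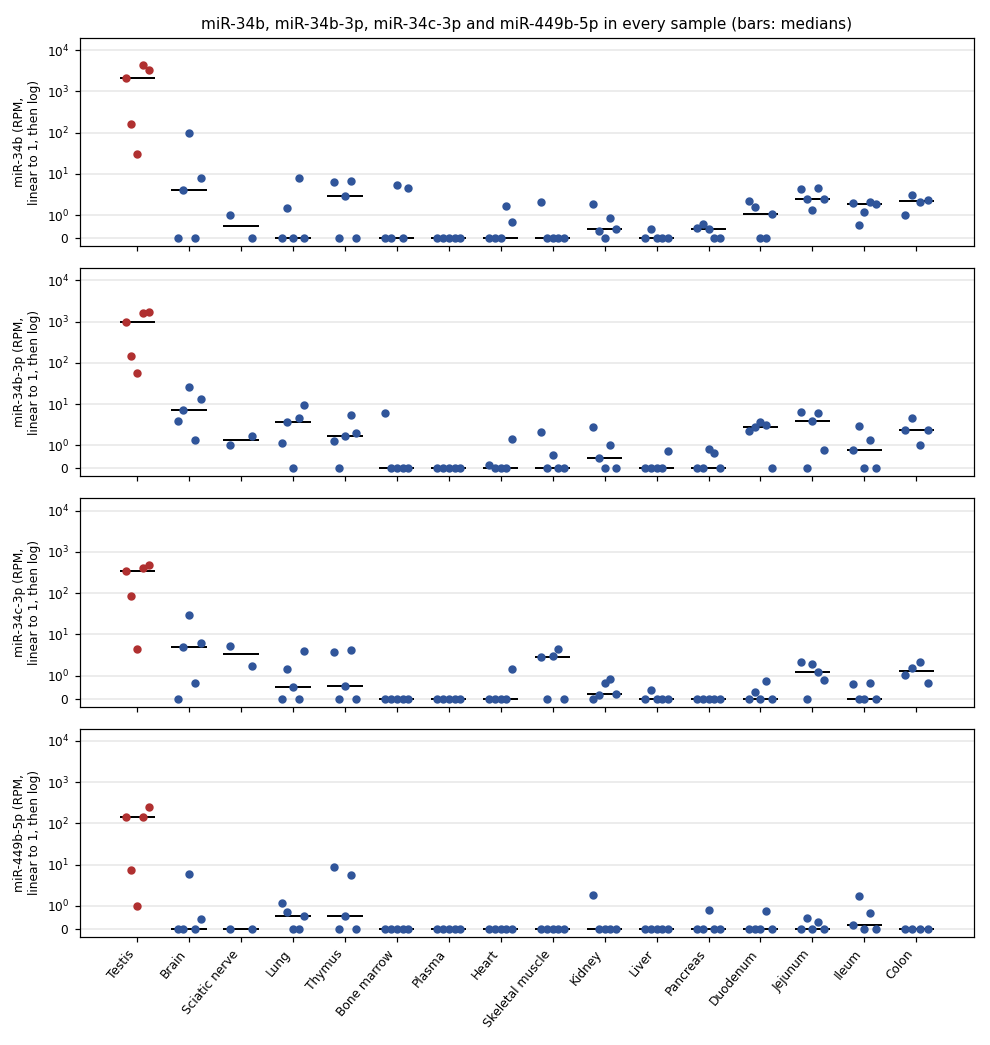
RPM of miR-34b, miR-34b-3p, miR-34c-3p and miR-449b-5p in each sample by tissue, on the same kind of axis, with points for samples and bars for medians. Testis medians were 2175, 991.5, 354.4 and 139.5 RPM, and many samples of other tissues lay at 0.

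Most reads of the 6 enriched members came from the 5 testis libraries. The testis share of all reads of a member was 89.4% for miR-449a, 88.1% for miR-34c, 87.4% for miR-34b, 82.0% for miR-34b-3p, 72.1% for miR-449b-5p and 67.0% for miR-34c-3p. For miR-34a the share was 1.49%. Outside testis, miR-34a had above 3 reads in 64 of 71 libraries and miR-34c in 57, whereas miR-449b-5p had above 3 reads in only 3 of 71 libraries, and most of its values there are counts at or near 0.

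The spread between testis samples was large and moved with other testis miRNAs. For the list of testis miRNAs, the names sought were miR-202, miR-506 to miR-510, miR-513, miR-514, miR-888 and miR-890 to miR-892. The 7 found with a read were miR-202, miR-506, miR-507a, miR-507b, miR-508a, miR-508b and miR-514. All 7 were higher in testis by edgeR, where 34% of 480 miRNAs were, and 4 of the 7 were TE, where 3.08% of 650 were. Of these, miR-202 had a testis median of 3340 RPM and a highest value elsewhere of 7.95 RPM, and miR-506 had 840.7 and 4.54 RPM. miR-508b had 659.8 and 1.14 RPM, and miR-508a had 132.0 and 0.622 RPM. With a floor of 3 reads per library for the 5 miRNAs that had no sample above it outside testis, the median fold over the list was at least 25.0. Over all 650 miRNAs, without a floor, it was 0.602. The list was chosen with earlier results of these data known, so its calls and folds describe it and are no separate support.

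The summed level of the 7 listed miRNAs was 5124, 357.4, 0.987, 7523 and 8013 RPM in testis 1 to 5. Testis 3, the deepest testis library, held 2 reads of the list among 2027090. The sum equalled 7.72% to 10.4% of the miR-34c level in testis 1, 2, 4 and 5, and 0.169% in testis 3. miR-143 and miR-145, which are high in smooth muscle, also differed, with miR-143 at 283034 and 236239 RPM in testis 2 and 3 and 74404 to 90496 RPM in the other 3. The part of tissue composition in the spread of the family was not tested.

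Leaving out testis 2 and 3 kept the same 6 calls and narrowed the spread. miR-34c then averaged 74259 ± 22648 RPM (SD, n = 3), a fold of 1273. The folds of miR-34b and miR-449a were 1197 and 1218 without these samples. miR-34a stayed at 24.4 ± 15.6 RPM, 0.675-fold of the other tissues.

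**Figure D3:**
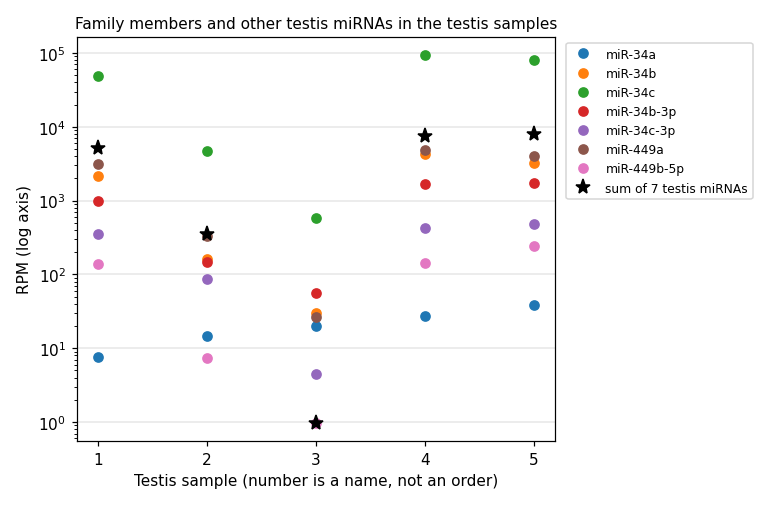
RPM of the 7 members and of the sum of 7 other testis miRNAs (stars) in the 5 testis samples, on a logarithmic axis. All members but miR-34a were lowest in testis 3, where the sum of the other testis miRNAs was 0.987 RPM and its star covers the point of miR-449b-5p, also at 0.987 RPM.

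The p53-responsive miRNAs were examined because miR-34a belongs to that programme. The names sought were miR-192, miR-194, miR-215, miR-143, miR-145, miR-107, miR-15a, miR-16, miR-605 and miR-1246. The list held the 15 miRNAs found with a read, and none of them was miR-605 or miR-1246. None was TE in testis, and the median fold in testis was 0.274, against 0.602 over all 650 miRNAs. No floor was applied to this list, and miR-15a-3p, miR-16-1-3p, miR-107-5p and miR-192-3p entered with a fold of 0. They had no testis read, and averaged only 0.137, 0.471, 0.454 and 11.4 RPM elsewhere. No shift of the list is therefore read from its median. Of 12 that entered the edgeR fit, 4 were higher and 4 lower in testis, where 34% and 16% of all 480 miRNAs were. The 4 with the largest fold were miR-143-5p, miR-145-3p, miR-143 and miR-145, at 3.08-, 1.70-, 1.499- and 1.40-fold, and these were the 4 called higher by edgeR. They are the same smooth muscle miRNAs and their other arms, and miR-143 was highest in testis 2 and 3. Without testis 2 and 3 miR-143-5p alone of these was called higher by edgeR (adjusted p = 0.0469), 4 of the 12 were lower, and the 4 folds were 2.13, 0.864, 0.804 and 0.615.

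The make-up of the family differed between testis and the other tissues. miR-34a was 0.0134%, 0.271%, 2.74%, 0.0261% and 0.0426% of the reads of the 7 members in testis 1 to 5. In the 61 samples of other tissues with at least 10 family reads the median share was 44.1% (exact two-sided rank-sum test, p = 4.48e-07). The share follows from the levels above, with the other members far higher in testis and miR-34a not, so this test adds no separate support. The lowest share outside testis was 1.87%, in brain 3, so that the groups overlapped by that one sample, which lay below testis 3.

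Between the other tissues the share varied widely. miR-34a made up a median of 90.5% of family reads in heart, 84.2% in pancreas and 83.0% in liver, against 17.3% in brain, 18.3% in thymus and 19.8% in skeletal muscle. In each of the latter 3, miR-34c held most of the remaining reads, with medians of 71.9%, 66.2% and 72.8%. Lung lay between, with a median of 66.5% and a range from 41.9% in lung 4 to 87.9%. The median level of the whole family was 56064 RPM in testis, 240.7 RPM in lung and 185.0 RPM in brain.

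**Figure D4:**
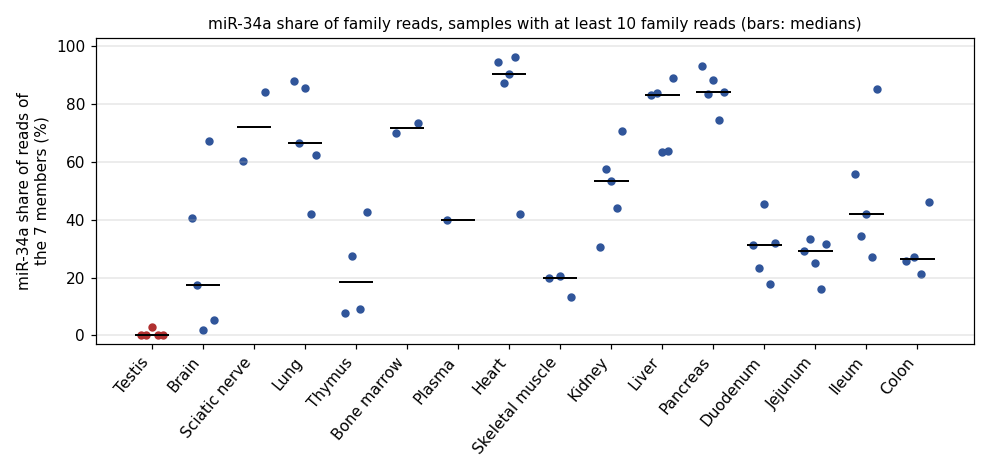
Share of miR-34a in the reads of the 7 members (percent) for each sample with at least 10 family reads, by tissue, with bars for medians. Testis samples lay at 2.74% or lower, the heart median was 90.5% and the brain median 17.3%.

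Outside testis the highest miR-34a levels were in lung. The lung samples held 211.6, 153.4, 175.9, 148.8 and 172.0 RPM, and all 5 were above every sample of every other tissue, the nearest being ileum 5 at 87.4 RPM. With testis left out, the lung mean of 172.3 ± 24.8 RPM (SD, n = 5) was 6.68-fold above the mean of 25.8 RPM in the other tissues (exact rank-sum test, adjusted p = 2.40e-05). Lung was TE for 0.321% of the 624 miRNAs tested without testis, and miR-34a was 1 of 7 members called. edgeR gave a log2 difference of 2.72 (adjusted p = 1.72e-17). With DESeq2 size factors the fold was 4.22, below the limit of 5 although the test passed.

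The other tissues followed for miR-34a in a nearly continuous order. Sciatic nerve came next at 60.7 and 46.4 RPM, then pancreas with a median of 47.9 RPM, bone marrow with 43.1 RPM, brain with 39.4 RPM, liver with 38.5 RPM and heart with 35.5 RPM. Ileum had a median of 32.2 RPM, and kidney, testis, colon, thymus and jejunum had medians between 16.4 and 22.6 RPM. Skeletal muscle and duodenum followed with 9.07 and 7.36 RPM. No neighbouring pair of tissues differed after adjustment over the 105 pairs of all members (exact permutation test, lowest adjusted p = 0.417), and 9 pairs had an unadjusted p below 0.05. With 5 samples against 5 the smallest unadjusted p is 0.00794, which passes the adjustment only where many pairs reach it together.

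Plasma, duodenum and skeletal muscle lay at the low end. In skeletal muscle miR-34a was at 11.9, 0, 12.3, 9.07 and 0 RPM, 0.174-fold of the other tissues without testis (exact rank-sum test, adjusted p = 0.0246). miR-34a was at 0, 3.96, 4.32, 2.55 and 2.07 RPM in plasma 1 to 5, 0.0668-fold of the other tissues without testis (exact rank-sum test, adjusted p = 2.85e-04). miR-34c was at 0, 0.566, 1.44, 3.83 and 0 RPM (exact rank-sum test, adjusted p = 4.20e-04), each on at most 6 reads. The other 5 members had no read in any plasma library. For miR-449a, which had none in bone marrow either, the adjusted p was 0.0103 in plasma and 0.0135 in bone marrow (exact rank-sum test). In bone marrow libraries held at most 239023 reads and a count of 0 allows at least 12.6 RPM.

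Brain was the tissue with the next highest miR-34c median after testis, and 1 sample set its mean. miR-34c was at 53.4, 133.0, 1939, 21.01 and 161.2 RPM in brain 1 to 5. Brain 3 (95% Wilson interval 1880 to 2001 RPM) was above all others, and the other 4 overlapped with lung and thymus. The mean of 461.6 ± 828.1 RPM (SD, n = 5) was 16.6-fold above the other tissues without testis (exact rank-sum test, adjusted p = 0.00673), a TE call in a tissue where 12.7% of 624 miRNAs were TE. With TMM scaling the adjusted p was 0.128 in the exact rank-sum test and the fold 10.1, so that the call was lost. Without brain 3 the mean was 92.2 ± 65.8 RPM, the fold 3.32 and the rank-sum adjusted p 0.0364 (exact), and miR-34c was no longer TE.

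All members but miR-34a were highest, among brain samples, in brain 3. There miR-34b was at 97.7 RPM against at most 7.82 RPM in the other brain samples, miR-34b-3p at 26.5 against 13.5 RPM and miR-34c-3p at 30.0 against 6.08 RPM. miR-449a was at 34.4 against 3.73 RPM and miR-449b-5p at 5.89 against 0.434 RPM. miR-34a, at 40.8 RPM, was inside the range of 10.9 to 48.8 RPM of the other brain samples.

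By edgeR, 6 members were higher in brain than in the mean of the other 14 tissues without testis, where 45.8% of 480 miRNAs were higher and 27.7% lower. Without brain 3, 3 members remained higher. These were miR-34c with a log2 difference of 1.40 (edgeR adjusted p = 0.0134), miR-34b-3p (edgeR adjusted p = 0.00241) and miR-34c-3p (edgeR adjusted p = 0.00582). Without brain 3 the adjusted p was 0.870 for miR-449a and 0.729 for miR-449b-5p in the edgeR fit. miR-34a was called lower, by -0.67 on the log2 scale (edgeR adjusted p = 0.0313), but the sign turned to 0.51 with library size scaling (edgeR adjusted p = 0.139) and to 0.13 with DESeq2 (adjusted p = 0.650).

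Brain 3 also held other miRNAs at levels unlike the rest of the brain samples. miR-204 was at 18388 RPM there against 2833 to 8209 RPM, and miR-192 at 23546 against 2518 to 3151 RPM. Chosen after their values were seen, miR-1298-5p was at 2225 RPM against 109.1 to 245.6 RPM, and miR-135b at 97.2 RPM against 1.36 to 3.82 RPM. The summed testis miRNAs were at 0.491 RPM in brain 3, 1 read. In testis 3, where miR-34c was at 582.1 RPM, the sum was also low, at 0.987 RPM. The part of the miRNAs that moved with brain 3 in its family levels was not tested.

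Lung showed members of the miR-34b/c and miR-449 loci at lower levels. miR-34c was at 23.3, 63.3, 28.8, 151.1 and 73.0 RPM in lung 1 to 5, and miR-449a at 3.49, 6.70, 0.514, 43.2 and 16.4 RPM on 1 to 38 reads. Lung 4 was highest and lung 5 next for both. By edgeR 4 members were higher in lung, where 22.1% of 480 miRNAs were higher and 9.38% lower. These were miR-34a, miR-449a (adjusted p = 2.11e-05), miR-34c (log2 difference 1.55, adjusted p = 0.0198) and miR-34b-3p (adjusted p = 0.0235). By rank-sum (exact, without testis) miR-34a alone passed, and miR-34c and miR-449a had adjusted p = 0.145 and 0.122.

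The lung calls other than miR-34a rested on lung 4 and 5. The summed testis miRNAs were at 0, 2.98, 0, 14.8 and 9.62 RPM in lung 1 to 5, on 0, 4, 0, 13 and 17 reads, and lung 4 and 5 were the highest of the 71 samples outside testis. miR-202 was at 7.95 and 7.36 RPM in lung 4 and 5, and miR-508b at 1.14 and 0 RPM. In testis 4 and 5 miR-508b was also below miR-202, at 801.5 and 915.8 RPM against 4905 and 5345 RPM. Without lung 4 and 5, 1 of the 7 members, miR-34a, was higher in lung (log2 difference 2.68, edgeR adjusted p = 1.01e-12). miR-34c then had a log2 difference of 0.57 (edgeR adjusted p = 0.814), and miR-449a an adjusted p of 0.461 in edgeR. Without lung 4 alone, miR-34a and miR-449a were called. Whether reads passed from testis libraries into these was not tested.

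Reads of the listed testis miRNAs were also present in several other libraries. Of the 71 samples outside testis, 40 had no read of the 7 listed miRNAs, and 13 had above 3 reads. In 8 of these 13 the sum was at least 7.72% of the miR-34c level, the lowest share among testis 1, 2, 4 and 5. Over the 13 the share ran from 0.868% to 25%. Only lung 4 (9.77%) and heart 5 (9.09%) lay within the range of those testis samples, which ended at 10.4%. Choosing samples with above 3 reads of the list favours high shares. In heart 5 miR-34c was at 39.4 RPM, against at most 3.11 RPM in the other heart samples. In skeletal muscle 1 miR-34c was at 40.7 RPM and the share was 13.8%. On 4 to 17 reads such shares are imprecise, and carry-over of reads between libraries was not tested. In brain 3, thymus 1 and thymus 4 the shares were 0.0253%, 0.719% and 0.868%.

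**Figure D5:**
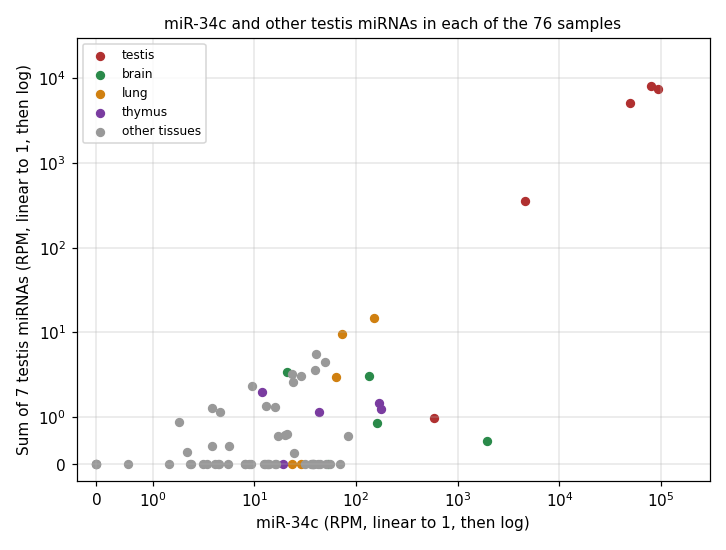
Level of miR-34c against the summed level of 7 other testis miRNAs in each of the 76 samples, in RPM, on axes linear up to 1 and logarithmic above. Testis 1, 2, 4 and 5 lay at the upper right, lung 4 and 5 lay at 14.8 and 9.62 RPM of the sum, and brain 3 and testis 3 lay far to the right with sums of 0.491 and 0.987 RPM.

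In the thymus, miR-34b, miR-34c, miR-34c-3p, miR-449a and miR-449b-5p were highest in thymus 1 and 4, the samples with high miR-181a. Neither miR-34a nor miR-34b-3p followed this. Levels of miR-34a in thymus 1 to 5 were 17.5, 12.7, 20.5, 20.8 and 11.8 RPM. Those of miR-34b-3p were 1.25, 0, 1.71, 5.56 and 1.97 RPM, with at most 3 reads in each sample but thymus 4. miR-34c was at 173.8, 19.0, 43.4, 168.5 and 11.8 RPM in thymus 1 to 5, and the high samples were thymus 1 and 4. miR-449b-5p was at 8.75 and 5.56 RPM in these samples, on 7 and 19 reads, and at 0, 0.570 and 0 RPM in thymus 2, 3 and 5. A count of 0 allows 19.0 RPM in thymus 2 and 5.91 RPM in thymus 5, so neither can be told from thymus 4. miR-34b and miR-34c-3p also had no read in thymus 2 and 5, and the same limit holds for them. miR-142, a miRNA of blood cells chosen after its values were seen, was at 14022 and 8991 RPM in thymus 1 and 4 and at 234.4 to 335.1 RPM in the others. No member passed the rank-sum test in thymus, where 0% of 624 miRNAs was TE. The exact rank-sum adjusted p was 0.634 for miR-34c and 0.549 for miR-449b-5p. Without thymus 1 and 4, miR-34c averaged 24.7 ± 16.5 RPM (SD, n = 3), 0.438-fold of the other tissues (exact rank-sum test, adjusted p = 1). The part of the cell content of these samples in the family levels was not tested.

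In the remaining tissues miR-34c was present at lower levels. The intestine held medians of 13.7 RPM in duodenum, 31.6 RPM in jejunum, 36.3 RPM in ileum and 37.5 RPM in colon, and skeletal muscle 40.7 RPM. Heart, pancreas and liver had medians of 2.38, 4.44 and 5.58 RPM. miR-34b had a median at or below 2.85 RPM in every tissue but testis and brain, and no tissue outside testis had a miR-449a median above 6.70 RPM.

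The proportions between members of a locus varied to different degrees. In libraries with at least 10 reads of miR-34b, miR-34c exceeded miR-34b by 19.3 to 28.2 times in the 5 testis samples and by 10.5 to 32.9 times in 7 other samples, with brain 3 at 19.8. The ratio of miR-34c to its 3p arm ran from 52.9 to 223 in 4 testis samples and from 26.5 to 64.7 in 4 others. miR-34b and miR-34b-3p were closer in level, with ratios of 0.535 to 2.58 in the 5 testis samples (median 1.88) and 0 to 3.69 in 8 others (median 0.665). In the libraries with at least 10 reads of miR-449b-5p, miR-449a exceeded it by 22.6, 34.5 and 16.3 times in testis 1, 4 and 5. It did so by 5.83 times in brain 3 and 2.74 times in thymus 4. Lung 5, with 29 reads of miR-449a to 1 of miR-449b-5p, fell outside this filter. Between the loci, miR-34c exceeded miR-449a by 13.96 to 21.9 times in testis, by 3.50 times in lung 4 and by 56.4 times in brain 3. Each ratio used only libraries with at least 10 reads of its second member, which leaves out high ratios where levels are low. Differences between testis and other samples are partly set by this filter. These ratios are descriptive, and the efficiency of library construction differs between sequences.

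Over the 15 tissues outside testis, the tissue means of miR-34b, miR-34c and miR-34b-3p rose and fell together, and those of miR-34c-3p followed less closely. Pearson's r of log2(mean RPM + 1) was 0.876 between miR-34b and miR-34c and 0.910 between miR-34b and miR-34b-3p, and 0.741 between miR-34c and miR-449a. miR-34a had r between 0.109 and 0.472 with the other members. Without brain 3 the first 3 values were 0.812, 0.862 and 0.643. For miR-34c-3p, r was 0.701 with miR-34b, 0.796 with miR-34c and 0.725 with miR-34b-3p. Without brain 3 these fell to 0.437, 0.691 and 0.610. The points share libraries and depth.

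Among 259 other miRNAs with a tissue median above 100 RPM, those with the most similar profile over the 16 tissues differed between members. For miR-34c they were miR-8908a-3p (r = 0.932), miR-8908a-5p (r = 0.879) and miR-506 (r = 0.867), and for miR-34b they were miR-8908a-3p (r = 0.948), miR-8908a-5p (r = 0.942) and miR-508a (r = 0.922). For miR-449a they were miR-506 (r = 0.950), miR-202 (r = 0.946) and miR-8908b (r = 0.923). miR-449b-5p was nearest to miR-508a (r = 0.953), miR-8831 (r = 0.946) and miR-508b (r = 0.945). For miR-34a the nearest were let-7f (r = 0.797), let-7a (r = 0.782) and miR-26a (r = 0.697), which are broadly expressed. Without brain 3 and testis 2 and 3 the correlations of these pairs lay between 0.693 and 0.974. For the members other than miR-34a these values rest largely on the testis point, and so restate the testis enrichment. Between miR-34b and miR-449a, for example, r was 0.915 over the 16 tissues and 0.493 over the 15 outside testis.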

How the data were processed

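TruSeq small RNA libraries of total RNA from the 16 tissues were sequenced by the authors. Adaptors were clipped, reads were aligned with OSA v4 to the dog genome build CanFam3.1 with no mismatch, reads at more than 10 locations were dropped, and bedtools counted reads that overlapped at least 70% of a dog, rat or human miRNA locus (miRBase v.21). The deposited table gives raw read counts per miRNA and sample, the total reads on miRNAs, and RPM. It is recorded as a score because 1 column holds all samples, and the deposited RPM scores of the authors equalled the counts over the totals within a relative 2.89e-09, so RPM was recomputed from the counts. The authors' highest RPM per miRNA was not used. A miRNA not listed for a sample was taken as 0. Counts summed to at most 1.16% above the totals. Without mismatches allowed, full-length reads of members that differ in sequence are separated, but short reads shared by near-identical members are uncertain.

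Samples were grouped by the tissue label. Of 77 labelled samples, 1 colon sample is not analysed here, and 1 sample name in the table matched no label and was not used. No 2 samples of a tissue agreed within sampling noise (lowest chi-square per degree of freedom 10.34 over 147 pairs). The members and lists were chosen with earlier results of these data known. The named miRNAs were all members, the 3 nearest profiles of each 5p member, up to 4 of each list with the largest fold in testis, and tissue markers where a result turned on them.

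The exact two-sided rank-sum test on RPM was adjusted by Benjamini-Hochberg over all 650 miRNAs within a tissue, or 624 with testis left out. The filter of 100 RPM on the median was added to the criteria of the study, and its limit on the number of tissues with detection was not applied to HTE calls. Counts were fitted with edgeR 4.0.16 (R 4.3.3; quasi-likelihood test, TMM, filterByExpr, all 16 tissues sharing 1 spread), and DESeq2 1.42.0 was an alternative. Neighbouring tissues were compared on log2(RPM + 1) by exact permutation. Scripts were tested on simulated data. Alternatives were other scalings, no filter, folds of medians, thinning to the smallest library, other tools, and leaving out samples. The medians of all 480 log2 differences moved by 0.34, 0.28 and 1.15 in testis, lung and brain from TMM to library size scaling. Intervals (95%, Wilson) and the floor of 3 reads cover counting error only.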

Additional observations from a re-analysis of the deposited data

Results flagged for a closer look

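In 69 groups of 4 or 5 samples with a member above 3 reads, 11 had a highest sample whose gap to the next exceeded Dixon's 95% critical value. That value assumes normal values, whereas RPM near 0 are skewed, and the groups are not independent because members share libraries. The 11 are therefore a list for a closer look and are not set against a rate expected by chance. Brain 3 gave 5 of these: miR-34c at 1939 RPM (next 161.2), miR-34b at 97.7 RPM (next 7.82), miR-34c-3p at 30.0 RPM (next 6.08), miR-449a at 34.4 RPM (next 3.73) and miR-449b-5p at 5.89 RPM (next 0.434). Duodenum 1 was high for miR-34c at 69.99 RPM (next 20.2) and for miR-34a at 33.9 RPM (next 8.08), on 31 and 15 reads. miR-34c in heart 5 was at 39.4 RPM (next 3.11) on 55 reads, and miR-34b in lung 4 at 7.95 RPM (next 1.49) on 7 reads. miR-449a was at 10.1 RPM in kidney 1 (next 1.73) on 11 reads and at 4.67 RPM in ileum 3 (next 0.817) on 4 reads. The causes were not tested.

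The table also lists cfa-miR-449b, a row apart from hsa-miR-449b-5p that the comparisons did not use. It had 5 reads in testis 4 (22.8 RPM) and 11 reads in testis 5 (38.3 RPM), above the highest value of 0.514 RPM outside testis, and 18 reads in all. The row hsa-miR-34a-3p, the opposite arm of miR-34a, was not used either and had 47 reads in all, 2 of them in testis.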

How the results depend on the processing

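No paired analysis was possible because the labels carry no dog or replicate number. The testis counts were stable: over the other settings, between 5 and 6 members were TE and between 5 and 6 HTE. The lower count arose under TMM scaling and without testis 1, 4 or 5. Under TMM scaling the median of miR-449b-5p fell below 100 RPM. Folds of medians were larger, at 2887 for miR-34c, 5276 for miR-34b and 3005 for miR-449a, and gave no value for miR-34c-3p and miR-449b-5p, whose median elsewhere was 0. Of the 2 member-tissue pairs TE outside testis, TMM scaling left 1 (miR-34a in lung) and DESeq2 size factors left 1 (miR-34c in brain), whereas without the filter of 100 RPM there were 3, with miR-34b-3p in brain added (fold 7.38, exact rank-sum adjusted p = 0.00289). Leaving out each sample in turn gave 1 to 2 pairs, and the count was 1 without brain 3 or without brain 5 (without brain 3 the miR-34c median was 93.2 RPM). The 4 members higher in lung by edgeR became 2 with DESeq2, 2 to 4 when a lung sample was left out (2 without lung 4), and 1 without lung 4 and 5. The 6 members higher in brain became 3 to 6 when a brain sample was left out (3 without brain 3). miR-34a in brain reversed to a log2 difference of 0.51 with library size scaling and 0.13 with DESeq2. Without testis 5, miR-34a was called lower in testis by -0.89 on the log2 scale (edgeR adjusted p = 0.0466). The share of miR-34a in family reads kept its side of the threshold under all settings tried, which follows from the high testis levels of the other members. The comparison of neighbouring tissues has little power at these group sizes and was not used to judge stability. Leaving out testis 2 and 3, lung 4 and 5, thymus 1 and 4, or brain 3 with the correlations, was chosen after seeing the data. Depth limits the members near 0 outside testis, above all miR-449b-5p and miR-34c-3p.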
